A study of Homo sapiens with 24 samples.

Results

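Transcripts of matrix metalloproteinases (MMPs), their tissue inhibitors (TIMPs) and the collagen cross-linking enzyme LOXL2 were followed in 2 breast cancer cell lines in which MDM2, a ubiquitin ligase, was targeted. The set holds 10 genes: MMP1, MMP2, MMP3, MMP9, MMP13, MMP14, TIMP1, TIMP2, TIMP3 and LOXL2. They were chosen by name, with earlier results of these data known. All 10 symbols were found among the 60675 genes counted in every library. MDA-MB-231 and MDA-MB-436 are established lines from triple-negative breast cancers, which lack the hormone receptors and HER2 used in treatment. RNA from 24 libraries was sequenced, 3 in each of 8 groups. For each line the groups were cells with an MDM2 short hairpin RNA (shRNA), cells with a non-targeting shRNA, cells given the MDM2 PROTAC YX-2-30, and cells given its DMSO vehicle. A PROTAC is a molecule that brings its target protein to a ubiquitin ligase for degradation. The comparisons ask which transcripts change with each way of targeting MDM2, and whether the lines respond alike. The labels give neither the PROTAC's dose and duration nor the hairpin sequences. They also leave out whether hairpin cells were clones and whether replicate libraries are from different cultures, and p-values thus measure only the spread between these libraries.

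As background, MMPs are zinc-dependent enzymes that cut proteins of the extracellular matrix. They are made as inactive precursors, and most are secreted, while MMP14 sits in the cell membrane. TIMPs bind active MMPs and block them, and TIMP2 also takes part in the activation of the MMP2 precursor by MMP14 at the cell surface. LOXL2 oxidises lysines in collagen, a step that leads to cross-linked, stiffer matrix. Carcinoma lines with mesenchymal traits, such as these, are known to make several of these proteins, and in tumours the surrounding fibroblasts also make many of them. Transcript levels do not show how much active enzyme is present.

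Library totals ran from 33413988 to 174744841 counts, with a median of 64.0 M counts, and no library had the same values as another. Levels below are CPM, the usual scaling of a gene's count to its library's normalised total, and every log2 change carries its standard error after the ± sign. MDM2 RNA was not called lower in the libraries labelled MDM2 shRNA: it averaged 26.5 ± 3.83 CPM there and 18.1 ± 5.93 CPM with the non-targeting shRNA in MDA-MB-231 (log2 change 0.55 ± 0.24, adjusted p = 0.137 by edgeR; SD, n = 3 each). In MDA-MB-436 it averaged 23.2 ± 7.38 CPM in the libraries labelled MDM2 shRNA and 25.2 ± 4.29 CPM with the non-targeting shRNA (log2 change -0.11 ± 0.22, adjusted p = 0.78 by edgeR). The hairpin groups are therefore named by their labels, and MDM2 protein was not measured here. Of 8 epithelial markers, 4 were at or above 1 CPM in each group, but not the same 4 in both lines. EPCAM, KRT8 and KRT18 were so in both lines, KRT19 only in MDA-MB-231 and KRT17 only in MDA-MB-436. CDH1, the adhesion molecule of epithelia, stayed at or below 0.397 CPM in MDA-MB-231 and 0.650 CPM in MDA-MB-436. Of 5 mesenchymal genes, 3 were at or above 1 CPM in every group of MDA-MB-231 and 5 in every group of MDA-MB-436. VIM, an intermediate filament of mesenchymal cells, lay between 2763 and 6197 CPM in MDA-MB-231 and between 593 and 996 CPM in MDA-MB-436. In MDA-MB-231 CDH2 and SPARC, of the same list, averaged 0.355 and 0.404 CPM. Of 9 fibroblast genes, 2 or 3 were at or above 1 CPM in each group. COL1A1 averaged 23.3 CPM in MDA-MB-231 and 4.79 CPM in MDA-MB-436, and FAP 0 and 6.92 CPM, while DCN had 0 counts in all 24 libraries.

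In MDA-MB-231 the collagenase gene MMP1 rose 1.95 times with the MDM2 shRNA label and 1.98 times with the PROTAC, while MMP14, TIMP3 and LOXL2 fell in both. In MDA-MB-436 LOXL2, MMP2, MMP3 and TIMP3 fell with both treatments. A gene is called when its adjusted p from edgeR's quasi-likelihood test, with Benjamini-Hochberg adjustment over all genes tested, is under 0.05. With the MDM2 shRNA label in MDA-MB-231, 1 member rose and 4 fell of 8 tested, where 22.7% of all 20675 genes tested were called (11.1% higher and 11.6% lower). With the PROTAC in MDA-MB-231, 1 rose and 3 fell of 8, where 22.6% of all genes were called (11.1% higher and 11.5% lower). With the MDM2 shRNA label in MDA-MB-436, 1 rose and 5 fell of 9, where 30.4% of all 22663 genes tested were called (16.0% higher and 14.4% lower). With the PROTAC in MDA-MB-436, 0 rose and 4 fell of 9, where 32.4% of all genes were called (17.3% higher and 15.1% lower). MMP9 and MMP13 in MDA-MB-231, and MMP13 in MDA-MB-436, had too few counts to be tested. In bulk libraries such as these, fewer cells making a transcript and less transcript per cell cannot be told apart.

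**Figure D1:**
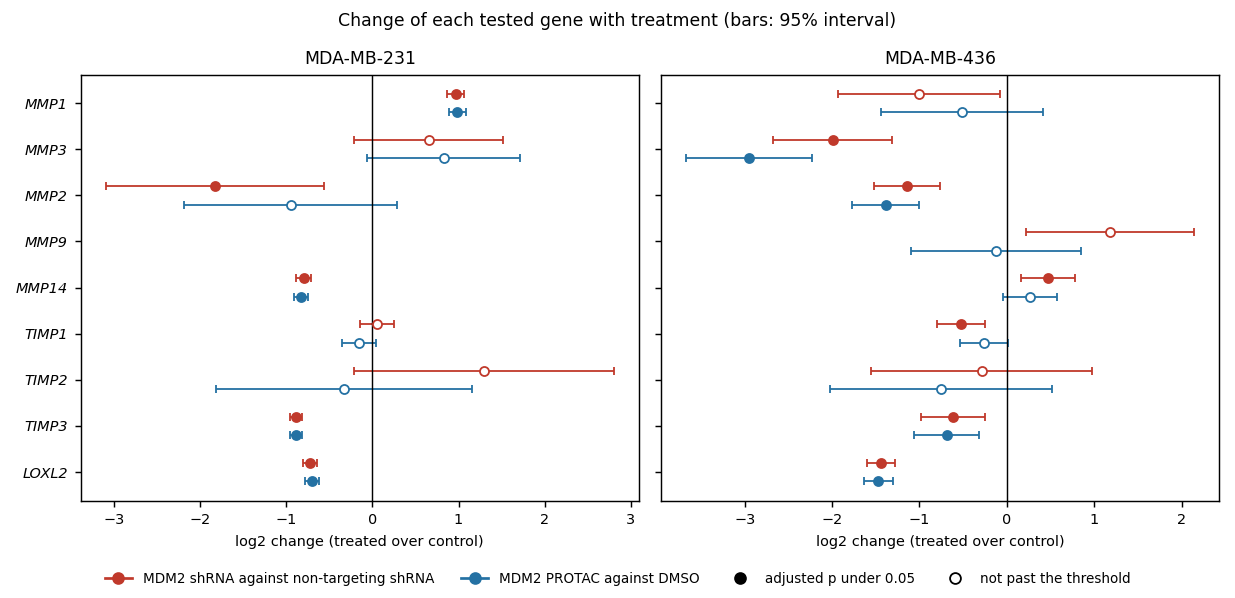
Log2 change of each tested member with treatment (x axis) in MDA-MB-231 (left) and MDA-MB-436 (right). Red is MDM2 shRNA against non-targeting shRNA, blue is MDM2 PROTAC against DMSO, bars are 95% intervals and filled points have an adjusted p under 0.05. MMP1 is filled to the right of 0 in MDA-MB-231, and LOXL2 and TIMP3 are filled to the left of 0 in all 4 comparisons.

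The median log2 change of the tested members was -0.34 and -0.52 in MDA-MB-231 (MDM2 shRNA label, then PROTAC), against 0.014 and -0.0060 over all genes tested. In MDA-MB-436 it was -0.61 and -0.69 in the same order of treatments, against 0.040 and 0.043 over all genes. The 3 libraries of a treatment did not overlap the 3 of its control for 6 of 8 members with the MDM2 shRNA label in MDA-MB-231, where 39.0% of all genes tested did not overlap. The count was 5 of 8 with the PROTAC in that line, against 39.1% of all genes. In MDA-MB-436 it was 8 of 9 with the MDM2 shRNA label, against 51.3% of all genes, and 6 of 9 with the PROTAC, against 41.6%. The members were chosen with earlier results of these data known. Their counts and medians beside those of all genes are thus descriptions, not a test of the set.

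The lines differed in their control libraries. Over the 6 control libraries of each line (non-targeting shRNA and DMSO), 3 members were higher and 4 lower in MDA-MB-436 than in MDA-MB-231, of 9 tested. The 3 higher include MMP9, which had too few counts for a test in MDA-MB-231 and entered this fit through MDA-MB-436. Of all 24719 genes tested, 66.8% were called, 35.9% higher and 30.9% lower. MMP14 averaged 2.56 ± 0.149 CPM in MDA-MB-436 controls and 590.3 ± 17.4 CPM in MDA-MB-231 controls (SD, n = 6 each; log2 difference -7.85 ± 0.052, adjusted p = 8.94e-27 by edgeR). TIMP3 averaged 6.41 ± 0.750 CPM in MDA-MB-436 and 513 ± 8.21 CPM in MDA-MB-231 (log2 difference -6.32 ± 0.090, adjusted p = 2.08e-21 by edgeR). MMP1 averaged 2.08 ± 0.442 CPM in MDA-MB-436 and 153 ± 5.73 CPM in MDA-MB-231 (log2 difference -6.19 ± 0.21, adjusted p = 8.05e-16 by edgeR). These 3 genes were above 100 CPM in MDA-MB-231 controls and under 10 CPM in MDA-MB-436 controls.

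MMP2 and MMP3 showed the opposite order. MMP2 averaged 18.5 ± 1.28 CPM in MDA-MB-436 controls and 0.994 ± 0.306 CPM in MDA-MB-231 controls (log2 difference 4.23 ± 0.29, adjusted p = 6.46e-11 by edgeR). MMP3 averaged 3.42 ± 0.306 CPM in MDA-MB-436 and 0.395 ± 0.136 CPM in MDA-MB-231 (log2 difference 3.13 ± 0.27, adjusted p = 2.39e-09 by edgeR). LOXL2 was 1.48 times lower in MDA-MB-436 (log2 difference -0.57 ± 0.050, adjusted p = 2.59e-09 by edgeR). TIMP1 and TIMP2 were not called between the lines, with 95% intervals of the log2 difference from -0.033 to 0.32 for TIMP1 and from -1.55 to 0.43 for TIMP2. Without non-targeting shRNA replicate 2 of MDA-MB-436, TIMP2 was called lower in that line (log2 difference -1.13, edgeR adjusted p = 0.0375). Line and any batch of the line cannot be told apart.

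Per kilobase of exon, the order of levels in MDA-MB-231 controls was MMP14 (132 ± 3.91 CPM per kb), TIMP3 (111 ± 1.78), MMP1 (77.6 ± 2.91), TIMP1, LOXL2, TIMP2, MMP2, MMP3, MMP9 and MMP13. The 6 libraries of MMP1 overlapped those of TIMP1, those of LOXL2 overlapped TIMP2, MMP2 overlapped MMP3, and MMP9 overlapped MMP13. In MDA-MB-436 controls the order was TIMP1 (80.5 ± 9.88 CPM per kb), LOXL2 (44.8 ± 2.08), TIMP2 (21.5 ± 12.3), MMP2, MMP3, TIMP3, MMP1, MMP14 and MMP9, with MMP13 at 0. MMP3 overlapped TIMP3 there, and TIMP3 overlapped MMP1, while the other neighbours did not overlap.

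**Figure D2:**
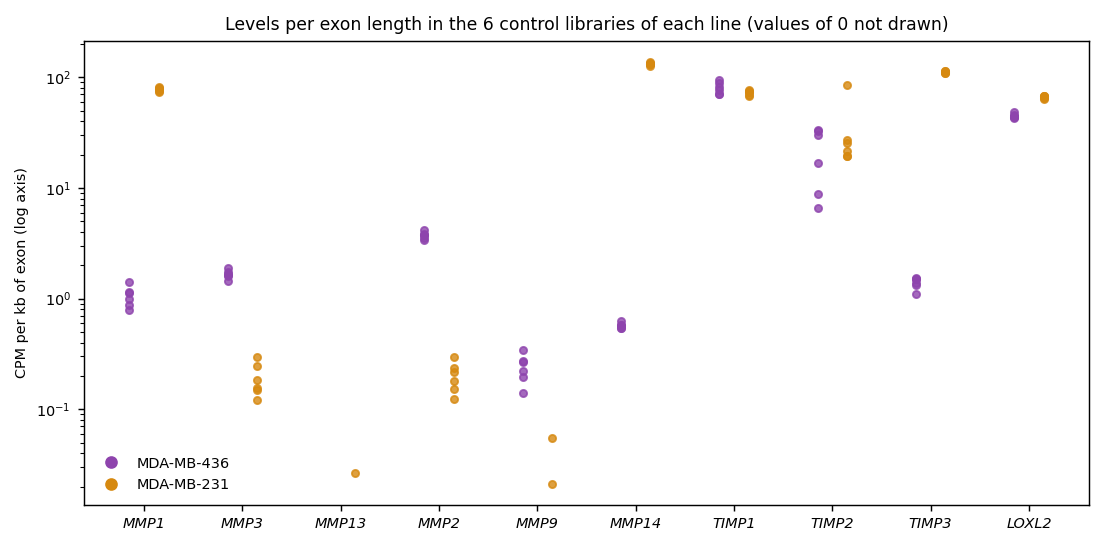
Levels in CPM per kb of exon (log axis) in the 6 control libraries of MDA-MB-436 (purple) and MDA-MB-231 (orange), with 1 point a library and values of 0 not drawn. MMP1, MMP14 and TIMP3 lie far lower in MDA-MB-436, while MMP2 and MMP3 lie higher there.

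MMP1, MMP3 and MMP13 lie near each other on chromosome 11 (GRCh38, GENCODE 29: MMP1 at 102789920 to 102798160, MMP3 at 102835801 to 102843803 and MMP13 at 102942995 to 102955734, all on the minus strand). MMP1 encodes the interstitial collagenase, which cuts fibrillar collagens. In MDA-MB-231 it had 296, 311 and 295 CPM with the MDM2 shRNA label, against 159.7, 144 and 158 CPM with the non-targeting shRNA. PROTAC libraries had 309.6, 299 and 295 CPM, against 149, 154 and 153 CPM with DMSO. Neither treatment overlapped its control. MMP1 was 1.95 times higher with the MDM2 shRNA label (log2 change 0.97 ± 0.046, adjusted p = 1.77e-07 by edgeR) and 1.98 times higher with the PROTAC (log2 change 0.99 ± 0.046, adjusted p = 1.82e-07 by edgeR).

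In MDA-MB-436, where MMP1 is scarce, it had 1.30, 1.03 and 0.648 CPM with the MDM2 shRNA label, against 2.25, 1.56 and 2.23 CPM with the non-targeting shRNA. The groups did not overlap, but the change was not called (log2 change -1.0 ± 0.42, adjusted p = 0.0994 by edgeR). It was called when all 24 libraries were fitted together (adjusted p = 0.0105), when the 6 libraries were fitted alone (adjusted p = 0.0307) and when PROTAC replicate 3 was left out of the shared fit (adjusted p = 0.0191), each by edgeR. It stood under the PROTAC at 1.01, 0.914 and 2.61 CPM, against 1.71, 1.94 and 2.79 CPM with DMSO, and the third PROTAC library overlapped the control (log2 change -0.52 ± 0.42, adjusted p = 0.397 by edgeR). That library is the shallowest of the 24, with 33413988 counts; without it the log2 change was -1.20 and was called (edgeR adjusted p = 0.0169). The MMP1 change differed between the lines with both treatments: the log2 change in MDA-MB-436 minus that in MDA-MB-231 was -1.98 ± 0.37 with the MDM2 shRNA label (edgeR adjusted p = 0.000572) and -1.62 ± 0.37 with the PROTAC (edgeR adjusted p = 0.00307). Over the members, 5 of 9 differed between the lines with the MDM2 shRNA label, 1 upward and 4 downward, where 19.7% of all genes tested did, 9.94% upward and 9.77% downward. With the PROTAC 4 of 9 differed, where 22.3% of all genes did.

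MMP3, stromelysin-1, cuts non-fibrillar matrix proteins and can activate other MMP precursors. In MDA-MB-436 it had 0.941, 0.919 and 0.810 CPM with the MDM2 shRNA label, against 3.56, 3.90 and 3.30 CPM with the non-targeting shRNA. For the PROTAC the values were 0.593, 0.478 and 0.155 CPM, against 3.33, 2.98 and 3.41 CPM with DMSO. All treated libraries lay below all controls, and MMP3 fell with both treatments (log2 change -1.99 ± 0.31, adjusted p = 0.000489 by edgeR with the MDM2 shRNA label; log2 change -2.95 ± 0.33, adjusted p = 4.08e-05 by edgeR with the PROTAC). These were the largest falls among the members. In MDA-MB-231 MMP3 had 0.728, 0.699 and 0.821 CPM with the MDM2 shRNA label, against 0.507, 0.608 and 0.308 CPM with the non-targeting shRNA, and the groups did not overlap, though the difference was not called (log2 change 0.65 ± 0.39, adjusted p = 0.284 by edgeR). With the PROTAC in that line it had 0.280, 0.626 and 0.785 CPM, against 0.377, 0.322 and 0.248 CPM with DMSO (log2 change 0.83 ± 0.40, adjusted p = 0.178 by edgeR). Among the alternatives run, it was called there only without PROTAC replicate 1 (log2 change 1.16, edgeR adjusted p = 0.0460). The MMP3 change in MDA-MB-436 minus that in MDA-MB-231 was -2.66 ± 0.52 with the MDM2 shRNA label (edgeR adjusted p = 0.000788) and -3.77 ± 0.54 with the PROTAC (edgeR adjusted p = 2.88e-05).

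MMP13, collagenase-3, was barely counted. In MDA-MB-231 the PROTAC libraries held 20 counts in all, in 2 of 3 libraries, and the non-targeting shRNA libraries held 5, in 1 library. The MDM2 shRNA and DMSO groups of that line and all 4 groups of MDA-MB-436 held 0 counts, which over the 3 libraries of a group allows at most 0.00990 to 0.0173 CPM (3 counts over a group, counting error only). No fold was computed. In each library more genes had a count of 4 than the mean number with 3 or 5, by 1.20 to 1.64 times, and low counts are read with that limit.

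**Figure D3:**
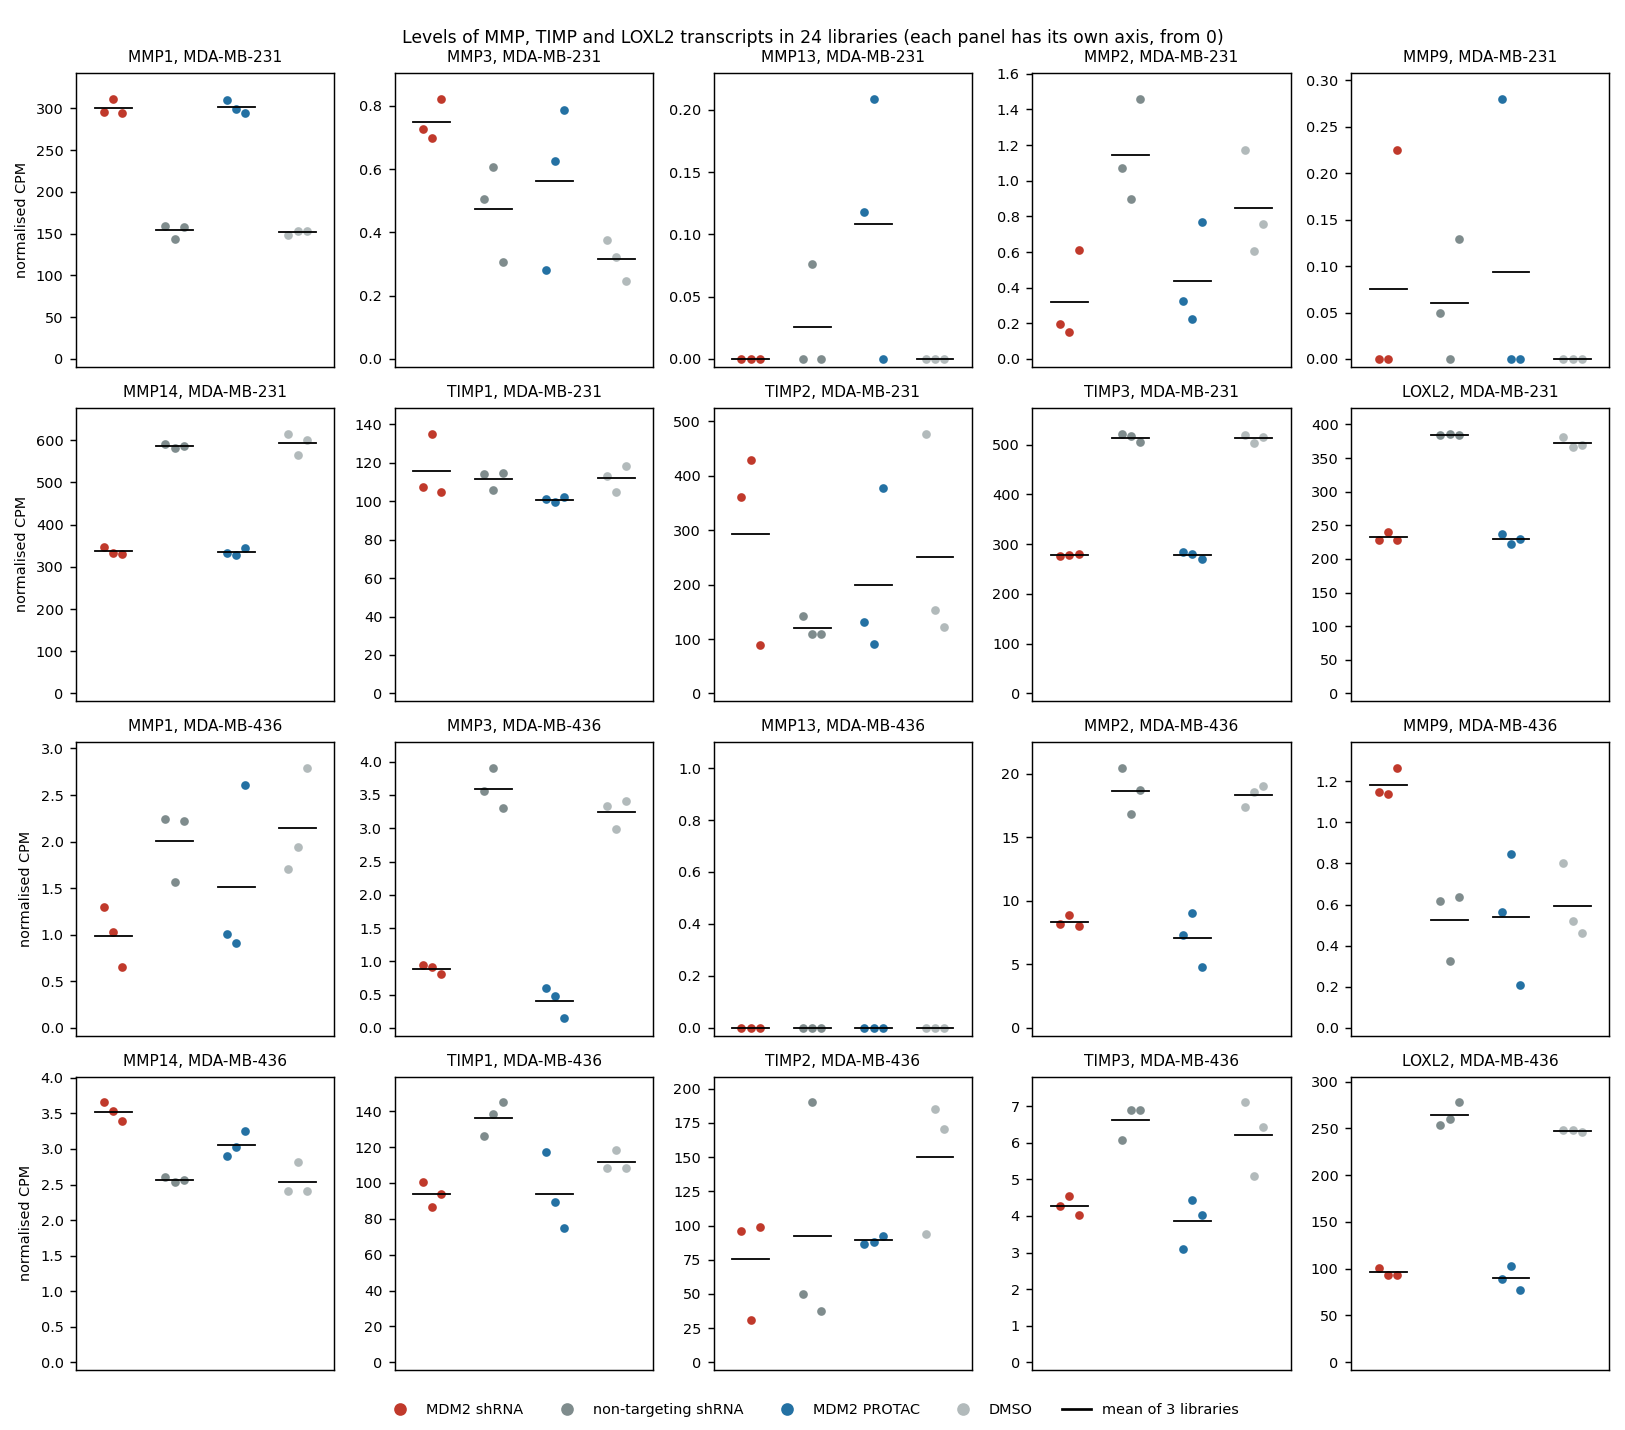
Normalised CPM of each member (y axis, each panel with its own scale from 0) in the 3 libraries of each group; the upper 10 panels show MDA-MB-231 and the lower 10 MDA-MB-436, with points for libraries and black bars for means. The lowest treated MDA-MB-231 library of MMP1 stands at 295 CPM and the highest control at 159.7 CPM, while TIMP2 scatters within groups.

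MMP2 and MMP9 encode the gelatinases, which cut denatured collagen and the basement membrane's type IV collagen. MMP2 (chromosome 16, 55389700 to 55506691, plus strand) had 8.19, 8.91 and 7.99 CPM in MDA-MB-436 with the MDM2 shRNA label, against 20.5, 16.8 and 18.7 CPM with the non-targeting shRNA. Under the PROTAC its level was 7.28, 9.06 and 4.81 CPM, against 17.4, 18.6 and 19.0 CPM with DMSO. The treated libraries all lay below the controls. MMP2 fell with the MDM2 shRNA label (log2 change -1.14 ± 0.17, adjusted p = 0.00039 by edgeR) and with the PROTAC (log2 change -1.39 ± 0.17, adjusted p = 9.32e-05 by edgeR). In MDA-MB-231 the gene was scarce, with 0.194, 0.153 and 0.611 CPM with the MDM2 shRNA label, against 1.07, 0.896 and 1.46 CPM with the non-targeting shRNA. It was called lower (log2 change -1.83 ± 0.57, adjusted p = 0.0414 by edgeR), but the call was lost without a filter on low counts (adjusted p = 0.0612), with the 6 libraries fitted alone (adjusted p = 0.0597), and without any 1 of 7 libraries. Those were the 3 non-targeting shRNA libraries, MDM2 shRNA replicates 1 and 2, DMSO replicate 3 and PROTAC replicate 1, with edgeR adjusted p-values from 0.0514 to 0.134. With the PROTAC in MDA-MB-231 MMP2 had 0.324, 0.226 and 0.769 CPM, against 1.17, 0.608 and 0.756 CPM with DMSO, and the groups overlapped (log2 change -0.95 ± 0.56, adjusted p = 0.275 by edgeR).

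MMP9 (chromosome 20, 46008908 to 46016561, plus strand) shares 18.4% of its exon bases with SLC12A5-AS1 on the other strand, and whether strand was used in counting is not given in the sources used here. SLC12A5-AS1 held 328 counts over the 24 libraries, against 698 for MMP9. In MDA-MB-436 MMP9 had 1.15, 1.14 and 1.26 CPM with the MDM2 shRNA label, against 0.619, 0.325 and 0.635 CPM with the non-targeting shRNA. The groups did not overlap, and the difference missed the threshold (log2 change 1.18 ± 0.44, adjusted p = 0.0642 by edgeR). It was past the threshold with no scaling beyond library totals, a filter of 1 CPM, DESeq2, limma voom, counts divided by 4, the 6 libraries alone and without PROTAC replicate 3, with adjusted p-values from 0.0178 to 0.0431. In this line only the MDM2 shRNA libraries reached 1 CPM, so MMP9 passed the 1 CPM filter through the group where it is high. The call under that filter is therefore not read as support. PROTAC libraries had 0.564, 0.848 and 0.207 CPM, against 0.803, 0.520 and 0.460 CPM with DMSO, and the groups overlapped (log2 change -0.12 ± 0.44, adjusted p = 0.87 by edgeR). In MDA-MB-231 the counts summed to 14 with the MDM2 shRNA label, all in 1 library, and 13 with the non-targeting shRNA. They summed to 19 with the PROTAC, again in 1 library, and 0 with DMSO. Between the lines, the controls held 257 counts in MDA-MB-436 and 13 in MDA-MB-231. MMP9 did not pass the filter in MDA-MB-231 and entered the fit of all 24 libraries through its MDA-MB-436 counts. Its call as higher in MDA-MB-436 sets it against counts near 0 and is not read as a test of the lines.

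MMP14 (chromosome 14, 22836557 to 22849027, plus strand) encodes the membrane-type MMP that activates the MMP2 precursor, and TIMP3 (chromosome 22, 32801701 to 32863043, plus strand) encodes the inhibitor that stays bound to the matrix. RefSeq promoter windows were read for 3 of the 10 members (MMP14, TIMP1 and TIMP3). Those of the other members, LOXL2 included, were not read. Of the 3 read, MMP14 and TIMP3, which both fell in MDA-MB-231, are shown. The sequences come from RefSeq (GRCh38.p14), run 5′ to 3′ on the plus strand and end just before the gene start annotated in GENCODE 29. They cover chr14:22836335-22836556 for MMP14 and chr22:32801455-32801700 for TIMP3, and capitals would mark a motif match.
MMP14: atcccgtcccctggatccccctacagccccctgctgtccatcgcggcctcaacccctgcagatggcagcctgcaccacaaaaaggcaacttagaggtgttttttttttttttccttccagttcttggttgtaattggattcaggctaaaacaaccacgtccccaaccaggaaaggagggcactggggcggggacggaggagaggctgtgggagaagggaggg
TIMP3: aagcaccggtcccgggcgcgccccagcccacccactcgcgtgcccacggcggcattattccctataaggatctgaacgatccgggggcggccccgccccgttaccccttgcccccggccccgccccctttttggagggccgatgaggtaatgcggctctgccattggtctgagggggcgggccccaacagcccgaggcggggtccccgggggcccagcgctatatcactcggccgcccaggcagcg
The motifs searched on both strands, in windows from 250 bases before to 50 after the RefSeq start, were 3. The first was TGANTCA, bound by AP-1 factors. The TATA box was searched as TATAAA. The core of sites of ETS factors was searched as AGGAAG. None of these letters occurs in the MMP14 or TIMP3 window, and so no base is in capitals. The TIMP1 window, the other member window read, holds AGGAAG 87 bases before its RefSeq start, inside the gene as GENCODE 29 draws it. Of all 35116 RefSeq promoter windows of this length, 7.71% hold TGANTCA, 11.5% hold TATAAA and 33.6% hold AGGAAG. The share of G and C was 56.3% in the MMP14 sequence and 72.0% in that of TIMP3.

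In MDA-MB-231 MMP14 had 347, 333 and 331 CPM with the MDM2 shRNA label, against 592, 583 and 585 CPM with the non-targeting shRNA. It stood under the PROTAC at 333, 329 and 345 CPM, against 616, 564 and 601 CPM with DMSO. Every treated library lay below every control. MMP14 fell to 0.575 of its control level with the MDM2 shRNA label (log2 change -0.80 ± 0.038, adjusted p = 1.94e-07 by edgeR) and to 0.564 with the PROTAC (log2 change -0.83 ± 0.038, adjusted p = 1.83e-07 by edgeR). In MDA-MB-436 it had 3.65, 3.54 and 3.39 CPM with the MDM2 shRNA label, against 2.60, 2.54 and 2.57 CPM with the non-targeting shRNA. This small rise was called (log2 change 0.47 ± 0.14, adjusted p = 0.024 by edgeR), but not without a filter (adjusted p = 0.154), nor when any of the 6 libraries of the comparison was left out (edgeR adjusted p = 0.0582 to 0.0861). For the PROTAC the values were 2.91, 3.02 and 3.26 CPM, against 2.41, 2.81 and 2.41 CPM with DMSO. The groups did not overlap there, and the difference was not called (log2 change 0.26 ± 0.14, adjusted p = 0.187 by edgeR), though it was with no scaling (adjusted p = 0.0380) and in the fit of all 24 libraries (adjusted p = 0.0184). The change in MDA-MB-436 minus that in MDA-MB-231 was 1.26 ± 0.080 with the MDM2 shRNA label (edgeR adjusted p = 1.41e-09) and 1.09 ± 0.082 with the PROTAC (edgeR adjusted p = 1.15e-08).

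TIMP3 had 277, 278 and 279 CPM in MDA-MB-231 with the MDM2 shRNA label, against 522, 516 and 504 CPM with the non-targeting shRNA. Under the PROTAC its level was 284, 281 and 271 CPM, against 519.9, 502 and 515 CPM with DMSO. The libraries within each group lay close together and the groups were far apart. TIMP3 fell with the MDM2 shRNA label (log2 change -0.89 ± 0.031, adjusted p = 3.03e-08 by edgeR) and with the PROTAC (log2 change -0.88 ± 0.031, adjusted p = 3.48e-08 by edgeR). In MDA-MB-436 TIMP3 was scarce but fell as well, with 4.26, 4.55 and 4.03 CPM with the MDM2 shRNA label, against 6.09, 6.90 and 6.89 CPM with the non-targeting shRNA (log2 change -0.61 ± 0.17, adjusted p = 0.016 by edgeR). That call was lost with no scaling beyond library totals (adjusted p = 0.0706) and without non-targeting shRNA replicate 2 or 3 or MDM2 shRNA replicate 3 (edgeR adjusted p = 0.0509 to 0.0584). PROTAC libraries had 3.10, 4.45 and 4.03 CPM, against 7.10, 5.08 and 6.42 CPM with DMSO (log2 change -0.69 ± 0.17, adjusted p = 0.00836 by edgeR), a call lost with the 6 libraries fitted alone (adjusted p = 0.0553). The TIMP3 change was not called different between the lines, with 95% intervals of the log2 difference from -0.051 to 0.56 with the MDM2 shRNA label and from -0.11 to 0.51 with the PROTAC. TIMP3 overlaps SYN3 on the other strand and shares no exon base with it.

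TIMP1 (chromosome X, 47582313 to 47586789, plus strand) encodes a secreted inhibitor of most MMPs. In MDA-MB-436 it had 100.4, 86.6 and 93.6 CPM with the MDM2 shRNA label, against 126, 138 and 145 CPM with the non-targeting shRNA. The groups did not overlap and TIMP1 fell (log2 change -0.53 ± 0.12, adjusted p = 0.00697 by edgeR), except with no scaling beyond library totals (adjusted p = 0.0516). It stood under the PROTAC at 117, 89.3 and 74.7 CPM, against 108, 118 and 108 CPM with DMSO, and the first PROTAC library lay within the range of the controls (log2 change -0.26 ± 0.12, adjusted p = 0.135 by edgeR). Without that library the log2 change was -0.45 and was called (edgeR adjusted p = 0.00259). In MDA-MB-231 TIMP1 had 107, 135 and 105 CPM with the MDM2 shRNA label, against 114, 106 and 115 CPM with the non-targeting shRNA, and was not called (95% interval of the log2 change -0.14 to 0.25). For the PROTAC the values were 101, 99.4 and 102 CPM, against 113, 105 and 118 CPM with DMSO, and this difference was not called either (95% interval -0.35 to 0.041). The change with the MDM2 shRNA label was called lower in MDA-MB-436 than in MDA-MB-231 (log2 difference -0.60 ± 0.17, edgeR adjusted p = 0.0157), but not without MDM2 shRNA replicate 2 of MDA-MB-231 (adjusted p = 0.0596).

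TIMP2 (chromosome 17, 78852977 to 78925387, minus strand), which helps MMP14 activate the MMP2 precursor, varied widely between libraries of a group. In MDA-MB-231 it had 362, 428 and 89.7 CPM with the MDM2 shRNA label, against 142, 109 and 108 CPM with the non-targeting shRNA. Under the PROTAC its level was 131, 90.5 and 377 CPM, against 477, 154 and 122 CPM with DMSO. In MDA-MB-436 it had 96.1, 31.1 and 98.9 CPM with the MDM2 shRNA label, against 49.7, 190.0 and 37.3 CPM with the non-targeting shRNA. PROTAC libraries had 86.5, 88.3 and 92.6 CPM, against 93.8, 185 and 171 CPM with DMSO. The groups overlapped in 3 of the 4 comparisons, and in the PROTAC comparison of MDA-MB-436 they did not. No change was called, and the 95% intervals of the log2 change ran from -0.22 to 2.80 and from -1.82 to 1.15 in MDA-MB-231, and from -1.55 to 0.98 and from -2.02 to 0.52 in MDA-MB-436 (MDM2 shRNA label, then PROTAC).

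The spread of TIMP2 stood out among genes of like level. Its SD was 69.5% of the mean in MDA-MB-231, as the median of 4 groups, and 6 of the 1932 genes within 2-fold of its level varied as much, with TIMP2 itself in both numbers. In MDA-MB-436 the figure was 41.9%, and 39 of 3892 genes of like level varied as much, again with TIMP2 in both numbers. LOXL2, by contrast, had 2.63% for MDA-MB-231 and 4.53% for MDA-MB-436. TIMP2 shares 3.52% of its exon bases with CEP295NL on the same strand and 6.52% with AC022966.1 on the other, and these genes held 1214 and 0 counts over the 24 libraries, against 253016 for TIMP2.

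**Figure D4:**
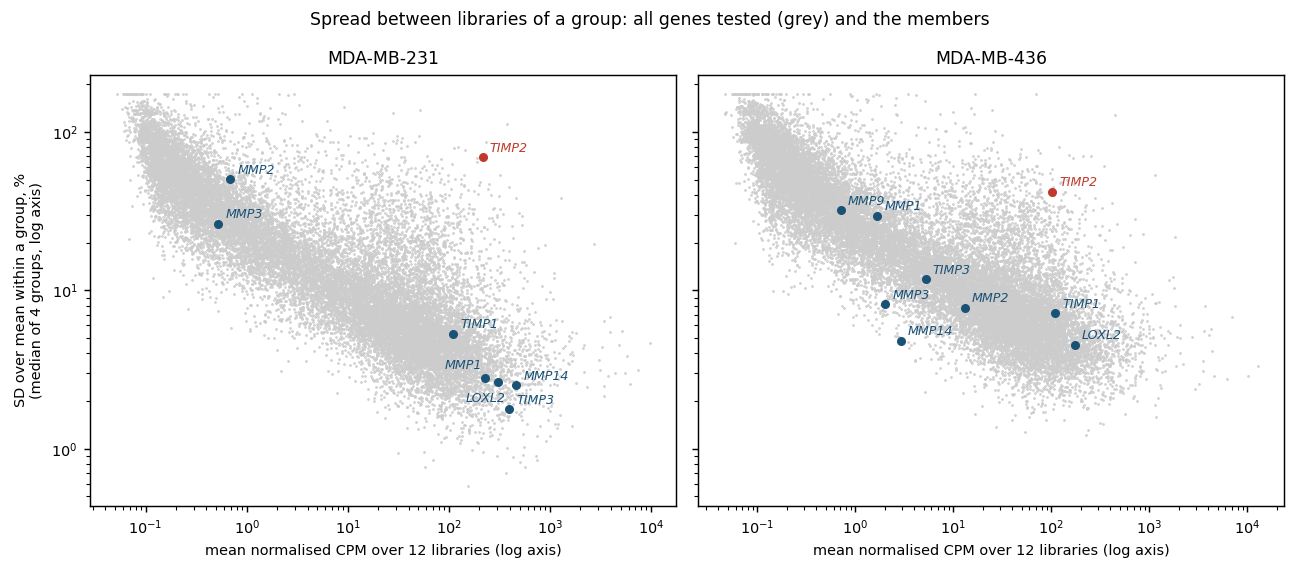
SD as a percent of the mean within a group (y axis, median of 4 groups, log axis) against the mean normalised CPM over 12 libraries (x axis, log axis) for all genes tested (grey) and the members (blue, TIMP2 in red) in each line. TIMP2 stands at 69.5% for MDA-MB-231 and 41.9% for MDA-MB-436, at the upper edge of genes of its level.

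LOXL2 (chromosome 8, 23297189 to 23425328, minus strand) fell with both treatments in each line. MDA-MB-436 had 101, 93.8 and 93.7 CPM with the MDM2 shRNA label, against 254, 260.3 and 278 CPM with the non-targeting shRNA. It stood under the PROTAC at 89.0, 103 and 77.4 CPM, against 248, 249 and 247 CPM with DMSO. It was 2.71 times lower with the MDM2 shRNA label (log2 change -1.44 ± 0.074, adjusted p = 1.81e-07 by edgeR) and 2.77 times lower with the PROTAC (log2 change -1.47 ± 0.074, adjusted p = 1.36e-07 by edgeR). In MDA-MB-231 it had 228, 241 and 228 CPM with the MDM2 shRNA label, against 384, 386 and 384 CPM with the non-targeting shRNA. For the PROTAC the values were 237, 222 and 230.3 CPM, against 381, 367 and 369.9 CPM with DMSO. It was 1.66 times lower with the MDM2 shRNA label (log2 change -0.73 ± 0.037, adjusted p = 2.47e-07 by edgeR) and 1.63 times lower with the PROTAC (log2 change -0.70 ± 0.037, adjusted p = 3.43e-07 by edgeR), and no treated group overlapped its control. The fall was larger in MDA-MB-436: the log2 change there minus that in MDA-MB-231 was -0.73 ± 0.10 with the MDM2 shRNA label (edgeR adjusted p = 2.00e-05) and -0.76 ± 0.10 with the PROTAC (edgeR adjusted p = 1.07e-05). LOXL2 shares 2.10% of its exon bases with ENTPD4 on the same strand and 3.12% with AC090197.1 on the other.

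The hairpin and the degrader were also compared directly, as the PROTAC's change minus that of the MDM2 shRNA label within a line. None of the 8 members tested in MDA-MB-231 was called, where 0.00484% of all genes (1 gene) were. None of the 9 tested in MDA-MB-436 was called, where 0.00441% (1 gene) were. No member of MDA-MB-231 had an unadjusted p under 0.05. In MDA-MB-436 MMP3 had 0.0495 unadjusted (log2 difference -0.96 ± 0.43, edgeR adjusted p = 0.905). The 95% intervals of the difference were narrow for the abundant members of MDA-MB-231, from -0.12 to 0.16 for MMP1, -0.093 to 0.10 for TIMP3, -0.15 to 0.092 for MMP14 and -0.087 to 0.14 for LOXL2. They were wide for TIMP2, from -3.74 to 0.49 in MDA-MB-231, and for MMP9 in MDA-MB-436, from -2.67 to 0.069.

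Ratios of enzyme to inhibitor transcripts, per kilobase of exon, are given as descriptions without a test. MMP1 over TIMP1 in MDA-MB-231 was 2.05 ± 0.221 with the MDM2 shRNA label and 1.08 ± 0.0152 with the non-targeting shRNA (SD, n = 3 each). With the PROTAC it was 2.34 ± 0.0712, and with DMSO 1.06 ± 0.0731. MMP14 over TIMP1 was lower with both treatments of MDA-MB-231, at 1.02 ± 0.147 with the MDM2 shRNA label and 1.82 ± 0.0758 with the non-targeting shRNA, and 1.15 ± 0.0162 with the PROTAC and 1.83 ± 0.0674 with DMSO. In MDA-MB-436 both ratios to TIMP1 were near 0, and MMP1 over TIMP1 was 0.00827 ± 0.00250 with the MDM2 shRNA label and 0.0116 ± 0.00257 with the non-targeting shRNA, and 0.0140 ± 0.0115 with the PROTAC and 0.0151 ± 0.00438 with DMSO, and the groups overlapped. MMP14 over TIMP1 was 0.0131 ± 0.000913 with the MDM2 shRNA label and 0.00653 ± 0.000529 with the non-targeting shRNA, and 0.0118 ± 0.00325 with the PROTAC and 0.00785 ± 0.000301 with DMSO. MMP14 over TIMP3 was, for MDA-MB-231, 1.25 ± 0.0367 with the MDM2 shRNA label and 1.18 ± 0.0178 with the non-targeting shRNA, and 1.24 ± 0.0611 with the PROTAC and 1.20 ± 0.0321 with DMSO. In MDA-MB-436 MMP14 over TIMP3 was 0.850 ± 0.0430 with the MDM2 shRNA label and 0.402 ± 0.0343 with the non-targeting shRNA, and 0.834 ± 0.134 with the PROTAC and 0.436 ± 0.118 with DMSO.

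For the 6 members with at least 1 CPM in each line, the genes with the most similar pattern over the 24 libraries were sought among 11652 protein-coding genes, as Pearson's r of log2 CPM after subtraction of the line's mean. LOXL2 was closest to PDIA4 (r = 0.995), a chaperone of the endoplasmic reticulum that forms disulfide bonds, and to SAPCD2 (r = 0.994). TIMP3 was closest to SH3RF3 (r = 0.966) and HDAC4 (r = 0.964), and MMP14 to EEFSEC (r = 0.958) and TBXAS1 (r = 0.953). TIMP1 was closest to POLR2L (r = 0.960) and TSPO (r = 0.951), and MMP1 to WDCP (r = 0.920) and IDI1 (r = 0.887). TIMP2 reached 0.656 with AFF1 and 0.655 with RAVER1. These libraries share their treatment groups, so genes that differ between treated and control groups correlate, and the values are descriptions.

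Other genes of matrix breakdown were read from 5 lists. Counts called in them, here and in the next 4 paragraphs, are read against the share of all genes called. That share was 22.7% and 22.6% in MDA-MB-231 and 30.4% and 32.4% in MDA-MB-436 (MDM2 shRNA label, then PROTAC). Some counts lie near it, and no list was tested as a set. Of 17 further MMPs, 8 were tested in each line. In MDA-MB-231 1 rose and 1 fell with each treatment. In MDA-MB-436 2 rose and 4 fell with the MDM2 shRNA label, and 2 rose and 2 fell with the PROTAC. MMP16, a membrane-type MMP like MMP14, fell in all 4 comparisons. It averaged 7.96 ± 0.622 CPM with the MDM2 shRNA label and 26.6 ± 1.19 CPM with the non-targeting shRNA in MDA-MB-436 (log2 change -1.72 ± 0.13, adjusted p = 2.86e-06 by edgeR), and 1.21 ± 0.357 and 4.24 ± 0.0229 CPM for the same groups in MDA-MB-231 (log2 change -1.80 ± 0.25, adjusted p = 0.000323 by edgeR). MMP19, a secreted MMP, rose in all 4, most in MDA-MB-436, where it averaged 24.3 ± 5.08 CPM with the MDM2 shRNA label and 3.52 ± 0.181 CPM with the non-targeting shRNA (log2 change 2.80 ± 0.17, adjusted p = 5.36e-07 by edgeR), and 21.7 ± 0.495 CPM with the PROTAC and 3.56 ± 0.589 CPM with DMSO (log2 change 2.60 ± 0.17, adjusted p = 8.31e-07 by edgeR). MMP19 shares 17.4% of its exon bases with TMEM198B on the other strand (6096 counts over the 24 libraries, against 15313 for MMP19). MMP15 fell and MMP24 rose with both treatments in MDA-MB-436, with log2 changes of -0.71 ± 0.13 and 1.15 ± 0.19 with the MDM2 shRNA label (edgeR adjusted p = 0.00149 for MMP15 and 0.000871 for MMP24). MMP24 shares 18.1% of its exon bases with MMP24OS on the other strand. MMP24OS held 75268 counts over the 24 libraries, against 2994 for MMP24. With the use of strand not given, how much of the MMP24 count comes from MMP24OS was not tested.

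**Figure D5:**
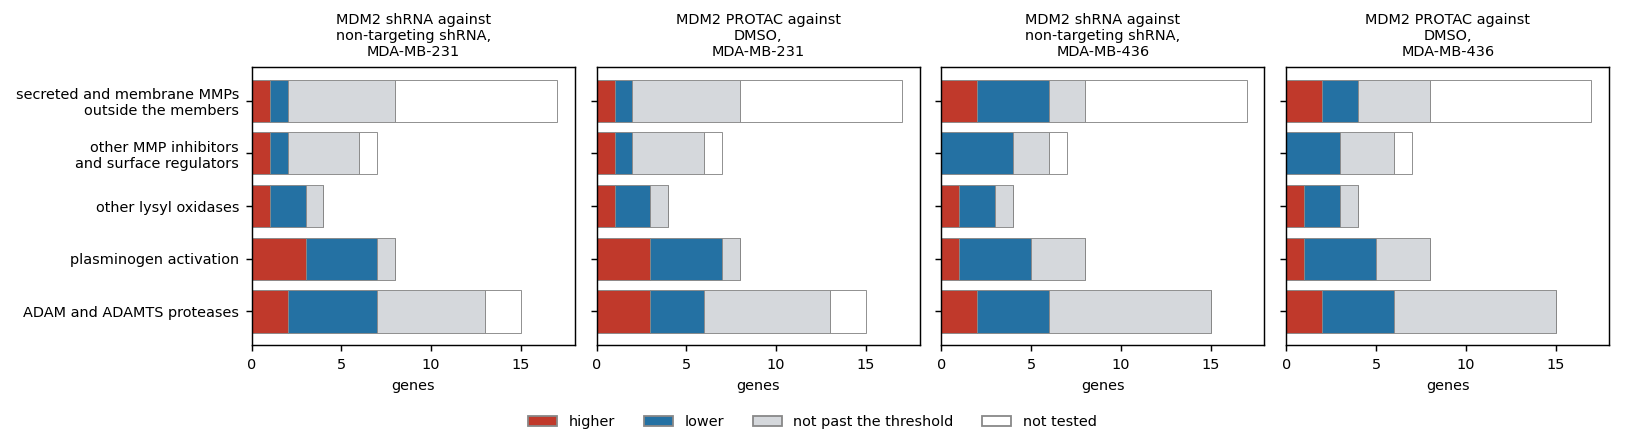
Number of genes (x axis) of 5 lists that were higher (red), lower (blue), not past the threshold (grey) or not tested (white) in each of 4 comparisons. Plasminogen activation has 7 of 8 genes called in both MDA-MB-231 comparisons, 3 higher and 4 lower. Of all genes tested there, 22.7% (MDM2 shRNA) and 22.6% (PROTAC) were called. Of the 17 further MMPs, 9 were not tested in each line.

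Plasmin, released from plasminogen, cuts matrix and activates MMP precursors. Of 8 genes, 3 rose and 4 fell with each treatment in MDA-MB-231, and 1 rose and 4 fell with each in MDA-MB-436. PLAU, the urokinase that releases plasmin, fell in all 4 comparisons, as did ANXA2 and S100A10, which together hold plasminogen at the cell surface. PLAU averaged 284 ± 9.67 CPM with the MDM2 shRNA label and 613 ± 19.5 CPM with the non-targeting shRNA in MDA-MB-231 (log2 change -1.11 ± 0.043, adjusted p = 5.03e-08 by edgeR), and 169.9 ± 0.646 and 273 ± 12.3 CPM for the same groups in MDA-MB-436 (log2 change -0.67 ± 0.070, adjusted p = 2.78e-05 by edgeR). PLAT, the other plasminogen activator, is named after its values were seen; it rose in all 4 comparisons, with log2 changes of 0.56 ± 0.10 and 0.56 ± 0.10 for MDA-MB-231 and 0.68 ± 0.11 and 0.40 ± 0.11 for MDA-MB-436 (MDM2 shRNA label, then PROTAC; edgeR adjusted p = 0.0023, 0.00219, 0.000778 and 0.0182 in that order). SERPINB2, a urokinase inhibitor, rose in MDA-MB-231 (log2 change 0.46 ± 0.080, adjusted p = 0.00179 by edgeR with the MDM2 shRNA label).

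Of the 4 other lysyl oxidases, 1 rose and 2 fell in each comparison. LOXL1 and LOXL4 fell in all 4, as LOXL2 did, with log2 changes of -0.61 ± 0.11 for LOXL1 and -0.22 ± 0.069 for LOXL4 with the MDM2 shRNA label in MDA-MB-231 (edgeR adjusted p = 0.00176 and 0.0389) and -0.78 ± 0.19 and -0.75 ± 0.075 in MDA-MB-436 (edgeR adjusted p = 0.00758 and 1.96e-05). The gene that rose differed by line. In MDA-MB-231 it was LOX, which averaged 71.6 ± 1.60 CPM with the MDM2 shRNA label and 48.9 ± 4.38 CPM with the non-targeting shRNA (log2 change 0.55 ± 0.085, adjusted p = 0.000811 by edgeR). In MDA-MB-436 it was LOXL3, which averaged 18.5 ± 0.867 CPM with the MDM2 shRNA label and 5.37 ± 1.91 CPM with the non-targeting shRNA (log2 change 1.80 ± 0.23, adjusted p = 0.000135 by edgeR), and 15.1 ± 2.71 CPM with the PROTAC and 3.79 ± 0.533 CPM with DMSO (log2 change 1.99 ± 0.24, adjusted p = 6.71e-05 by edgeR). LOXL3 shares 14.3% of its exon bases with HTRA2 on the other strand, which held 120039 counts over the 24 libraries against 14075 for LOXL3, and LOXL1 shares 9.21% with LOXL1-AS1 (20807 counts, against 23819 for LOXL1).

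Among 7 other inhibitors and surface partners of MMPs, 6 were tested, and 1 rose and 1 fell with each treatment in MDA-MB-231, while 0 rose in MDA-MB-436 and 4 fell with the MDM2 shRNA label and 3 with the PROTAC. TFPI2, a protease inhibitor laid down in the matrix, moved in opposite directions in the lines. It averaged 56.5 ± 2.72 CPM with the MDM2 shRNA label and 26.3 ± 2.48 CPM with the non-targeting shRNA in MDA-MB-231 (log2 change 1.11 ± 0.090, adjusted p = 8.32e-06 by edgeR), and 99.9 ± 5.77 and 134 ± 8.78 CPM for the same groups in MDA-MB-436 (log2 change -0.41 ± 0.058, adjusted p = 0.000251 by edgeR). The TFPI2 change in MDA-MB-436 minus that in MDA-MB-231 was -1.54 ± 0.11 (edgeR adjusted p = 9.65e-09) with the MDM2 shRNA label and -1.57 ± 0.11 (edgeR adjusted p = 5.79e-09) with the PROTAC. LRP1, a receptor that clears MMPs and TIMPs from outside the cell, fell in all 4 comparisons, by a log2 change of -0.79 ± 0.11 with the MDM2 shRNA label in MDA-MB-436 (edgeR adjusted p = 0.000269). CD44, a surface anchor for MMPs, fell in MDA-MB-436, averaging 404 ± 7.87 CPM with the MDM2 shRNA label and 705 ± 24.9 CPM with the non-targeting shRNA (log2 change -0.79 ± 0.067, adjusted p = 6.24e-06 by edgeR).

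The ADAM and ADAMTS proteases are relatives of the MMPs, and TIMP3 also inhibits some ADAM and ADAMTS enzymes. Genes of this list moved in both directions. Of 15 genes, 13 were tested in MDA-MB-231, where 2 rose and 5 fell with the MDM2 shRNA label and 3 rose and 3 fell with the PROTAC. All 15 were tested in MDA-MB-436, where 2 rose and 4 fell with each treatment. ADAM10, a sheddase that releases surface proteins, fell in all 4, with log2 changes of -0.40 ± 0.069 and -0.37 ± 0.069 for MDA-MB-231 and -0.64 ± 0.11 and -0.84 ± 0.11 for MDA-MB-436 (MDM2 shRNA label, then PROTAC; edgeR adjusted p = 0.00183, 0.00287, 0.000787 and 0.000106 in that order). ADAM8 averaged 62.8 ± 1.58 CPM with the MDM2 shRNA label and 127 ± 4.45 CPM with the non-targeting shRNA in MDA-MB-231 (log2 change -1.02 ± 0.040, adjusted p = 5.03e-08 by edgeR). ADAM12 fell and ADAMTS9 rose in MDA-MB-436, with log2 changes of -1.01 ± 0.15 and 1.14 ± 0.15 with the MDM2 shRNA label (edgeR adjusted p = 0.00039 and 0.000133).

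Marker genes of other cell types moved with treatment in places, and their part in these results was not tested. The summed level of 9 fibroblast genes ranged from 43.2 to 44.5 CPM with the MDM2 shRNA label and from 22.5 to 25.4 CPM with the non-targeting shRNA in MDA-MB-231, led by COL1A1, with DCN and FAP at 0 in both. With the PROTAC it ranged from 39.6 to 44.8 CPM, and with DMSO from 22.4 to 26.3 CPM. In MDA-MB-436 the sum of 8 leukocyte genes ranged from 46.5 to 52.5 CPM with the MDM2 shRNA label and from 26.4 to 33.6 CPM with the non-targeting shRNA, with TYROBP at 0. The sum of 8 epithelial markers ranged there from 517 to 579 CPM with the MDM2 shRNA label and from 968 to 1146 CPM with the non-targeting shRNA. In MDA-MB-231 the sum of 5 mesenchymal genes, mostly VIM, ranged from 3187 to 3458 CPM with the MDM2 shRNA label and from 5002 to 6556 CPM with the non-targeting shRNA.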

How the data were processed

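Per the labels' protocols, TRIzol gave total RNA, an NEBNext Ultra II kit turned it into libraries, and these were read on an Illumina HiSeq. The deposited values are raw counts per Ensembl gene, and the submitters' processing notes name cutadapt 2.4, HISAT2, StringTie, edgeR and GRCh38. The counting program, the use of strand and the annotation are not given in the sources used here. Of the gene IDs, 57055 occur in GENCODE 29, and these hold 99.93% of the counts.

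Counts were tested with edgeR 4.0.16 (R 4.3.3; quasi-likelihood test, TMM scaling, filterByExpr, Benjamini-Hochberg adjustment, threshold 0.05), in 1 fit of 12 libraries per line for treatments and 1 fit of all 24 for differences between lines. Printed CPM use TMM factors over all 24 libraries. Levels per kb divide by the exon length of GENCODE 29. Total counts per library limit what can be seen of scarce genes, and intervals from counts cover counting error only.

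All members are named. Genes of 5 lists are named where called in a comparison with a mean of at least 1 CPM in that line, at most 4 a list and comparison by smallest adjusted p. Values of some list and marker genes are not reported here. The members and lists were chosen with earlier results of these data known. Alternatives were DESeq2 1.42.0, limma 3.58.1 voom, other scaling and filters, other sets of libraries, counts divided by 4, protein-coding genes alone, a threshold of 0.01, a replicate block, and leaving out each library.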

Additional observations from a re-analysis of the deposited data

Results flagged for a closer look

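For 5 of 9 members tested, the change with 1 or both treatments differed between the lines by edgeR's test of the difference (log2 change in MDA-MB-436 minus log2 change in MDA-MB-231, adjusted over all genes). Of all 24719 genes tested, 19.7% differed with the MDM2 shRNA label and 22.3% with the PROTAC. With the MDM2 shRNA label the differences were -1.98 for MMP1, -2.66 for MMP3, -0.73 for LOXL2, 1.26 for MMP14 and -0.60 for TIMP1. With the PROTAC they were -1.62 for MMP1, -3.77 for MMP3, -0.76 for LOXL2 and 1.09 for MMP14. MMP1 and MMP14 were under 4 CPM in every library of MDA-MB-436, and MMP3 was under 1 CPM in every library of MDA-MB-231. The difference for TIMP1 was not called without MDM2 shRNA replicate 2 of MDA-MB-231 (edgeR adjusted p = 0.0596).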

How the results depend on the processing

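Counts of members called stayed within 1.5 times the reported count under every alternative run. With the replicate number as a replicate block they were 5, 4, 6 and 4 for the treatment comparisons (MDM2 shRNA label and PROTAC in MDA-MB-231, then in MDA-MB-436), 0 and 0 for PROTAC minus shRNA, 5 and 4 for the differences between lines and 7 for the controls of the lines, as without it; same-numbered libraries did not vary together (correlations of -0.081 to 0.073). Leaving out 1 library gave 4 to 5 members with the MDM2 shRNA label and 4 to 5 with the PROTAC in MDA-MB-231, 4 to 8 with the MDM2 shRNA label and 4 to 5 with the PROTAC in MDA-MB-436, 4 to 5 and 4 to 4 between lines, and 7 to 8 between controls. The 8 in MDA-MB-436 came without PROTAC replicate 3, and the 4 without non-targeting shRNA replicate 2 or 3 or MDM2 shRNA replicate 3. The smallest count in a treatment comparison was 3, with the PROTAC in MDA-MB-436 and 6 libraries fitted alone. With no scaling beyond library totals the median log2 change of all genes was 0.11 and 0.08 in MDA-MB-231 and 0.22 and 0.21 in MDA-MB-436 (MDM2 shRNA label, then PROTAC).

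The sign changed only for values that were not called, and the cause was not tested. For PROTAC minus shRNA in MDA-MB-231, TIMP3 was -0.013 with no scaling, -0.0032 with a filter of 1 CPM, -0.0043 for protein-coding genes and -0.00013 with counts divided by 4. In MDA-MB-436, TIMP2 was 0.059 with the MDM2 shRNA label by voom, and MMP9 with the PROTAC was 0.038 with no scaling, 0.070 by voom and 0.016 with counts divided by 4. Leaving out 1 library, the log2 change in MDA-MB-231 ran from -0.074 to 0.12 for TIMP1 with the MDM2 shRNA label and from -1.18 to 0.53 for TIMP2 with the PROTAC; PROTAC minus shRNA there ran from -0.14 to 0.50 for MMP3, -0.060 to 0.011 for MMP14 and -0.0084 to 0.028 for TIMP3. In MDA-MB-436 it ran from -0.66 to 0.81 for TIMP2 with the MDM2 shRNA label and from -0.59 to 0.22 for MMP9 with the PROTAC; PROTAC minus shRNA ran from -0.19 to 0.77 for MMP1, -0.19 to 0.066 for TIMP3 and -0.12 to 0.041 for LOXL2. Between the lines it ran from -0.22 to 6.25 for MMP9 with the MDM2 shRNA label, and with the PROTAC from -0.73 to 0.24 for MMP2, -0.29 to 0.040 for TIMP1 and -1.29 to 0.43 for TIMP2. MMP9 in MDA-MB-231 and MMP13 in both lines had too few counts to be tested, and the part of depth in this was not tested.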

Other observations

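The 2 kinds of control and the 2 kinds of treatment were also set against each other within a line, comparisons chosen after the data were seen. DMSO against the non-targeting shRNA gave 0 calls of 20675 genes in MDA-MB-231 by edgeR (903 genes at an unadjusted p under 0.05) and 4 of 22663 in MDA-MB-436 (2579 unadjusted). PROTAC against the MDM2 shRNA label gave 3 calls in MDA-MB-231 (1113 unadjusted) and 1 in MDA-MB-436 (1051 unadjusted). No member was among the genes called in these comparisons.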
